A study of Caenorhabditis elegans with 2 samples.

Results

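The genes described here encode the cuticle collagens of Caenorhabditis elegans, and they were examined for binding sites of the protein encoded by D2030.7. Members were the protein-coding genes whose name in the Ensembl annotation of WBcel235 starts with col-, together with bli-1, bli-2, dpy-2, dpy-7, dpy-10, dpy-13, rol-6, sqt-1, sqt-3 and lon-3. This gave 166 genes, 156 by the col- prefix and 10 by their own names, of 19973 protein-coding genes on the 6 nuclear chromosomes. Binding was mapped by anti-GFP chromatin immunoprecipitation and sequencing (ChIP-seq) in whole worms of strain RW12302, in which a CRISPR insertion at D2030.7 adds TY1, EGFP and 3xFLAG tags. In RefSeq the product of D2030.7 (WBGene00008417) is listed with a domain of the C2H2 type, a zinc finger that many transcription factors use to contact DNA. All samples form 1 group, young adults at 62.5 hours grown from starved first-stage larvae, with 2 biological replicates. No untreated or untagged group was used here, so no value has a control level measured the same way. The lists hold no read counts, so depth is unknown, and a promoter without a listed peak shows only that no peak passed there.

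The worm cuticle is a layered extracellular matrix made mostly of collagens, which the underlying epidermis (hypodermis) secretes before each moult. Collagen chains are hydroxylated and folded in the secretory pathway, cleaved by proteases at the cell surface, and crosslinked in the finished cuticle. Different collagens build different structures, such as the furrows that ring the body and the struts of the adult cuticle, and loss of single members changes body shape or causes blisters. Whole worms hold many tissues, so binding in a few cells and binding in none cannot be told apart where no peak is listed, and the tissue could not be checked against marker expression because peak lists carry none.

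The bases at the summits that lay before collagen genes are given first, since they show which annotated elements the peaks sat on. A summit is the position of highest signal in a peak. Each sequence is 100 bases of WBcel235 centred on the summit, read 5′ to 3′ on the minus strand, which is the strand of each of these genes. The windows are chrII:3502783-3502882 for col-71, chrII:8569457-8569556 for col-38, chrIV:10085810-10085909 for col-2 and chrX:13511976-13512075 for col-185. Capitals in the col-38 sequence mark TACGGTA, the reverse complement of a word of 7 bases frequent at summits (TACCGTA). Capitals in the col-185 sequence mark 66 bases of a tRNA-Pro gene. The window chrIV:4658424-4658523 before col-111 is shown for contrast, because its candidate summit fell just below the authors' threshold.
col-71: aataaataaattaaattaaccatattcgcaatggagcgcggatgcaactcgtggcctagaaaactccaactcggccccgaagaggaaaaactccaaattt
col-38: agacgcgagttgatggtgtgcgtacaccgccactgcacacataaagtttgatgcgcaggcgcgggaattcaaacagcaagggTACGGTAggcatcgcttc
col-2: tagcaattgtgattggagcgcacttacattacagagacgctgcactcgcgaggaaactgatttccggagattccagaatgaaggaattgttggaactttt
col-185: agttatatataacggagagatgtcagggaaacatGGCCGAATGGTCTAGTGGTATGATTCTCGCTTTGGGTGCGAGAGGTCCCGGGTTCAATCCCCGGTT
col-111: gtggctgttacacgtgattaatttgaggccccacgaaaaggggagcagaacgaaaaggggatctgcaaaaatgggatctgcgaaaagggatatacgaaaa
GC content was 41.0% for col-71, 55.0% for col-38, 44.0% for col-2, 50% for col-185 and 46.0% for col-111.

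Few collagen promoters carried a listed peak. In the main list, the authors' conservative pooled list of 2777 peaks, 5 of 166 collagen genes had a summit between 1000 bp upstream and 200 bp downstream of the 5′ end. That is 3.01% of members (exact 95% interval 0.985 to 6.89), beside 9.79% of all protein-coding genes (1955 of 19973). The interval covers counting over genes only, and genes are not independent replicates because neighbours can share a promoter. No test of the difference was made. The 5 genes were col-2, col-38, col-63, col-71 and col-185, all from the numbered col- series.

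None of the 10 collagens in the rule that are named after mutant phenotypes was among them. With 10 genes, and a share of 9.79% over all protein-coding genes, this count does not set them apart. The furrow collagens dpy-2, dpy-7 and dpy-10, the adult strut collagen bli-2 and the body-shape collagen sqt-3 had no candidate summit in the window in the pooled ranked list, nor in the ranked list of either replicate. The ranked lists hold every candidate peak before the authors' threshold. They carry −log10 of the irreproducible discovery rate (IDR), which is higher where a peak ranks alike in the inputs compared, and the threshold is 2. The other 5 of these 10 genes (50%) had candidates far below it. Over all genes 53.5% had a candidate in the window, and over all members 42.8%. The strut collagen bli-1 had a candidate with signal 34.9 and −log10 IDR 0.195, inside an intron of the neighbour dph-2. The candidate of sqt-1 had signal 51.0 and −log10 IDR 0.209, inside an exon of the neighbour rmd-3. For dpy-13, rol-6 and lon-3, signal was 3.20, 20.3 and 20.6, each with −log10 IDR 0.0599, the lowest value of the list. None of the 10 genes had a candidate in both replicates, beside 27.6% of all genes and 16.3% of members. The nearest main-list summit lay between 2796 bp (bli-2) and 129163 bp (rol-6) from their 5′ ends.

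The 5 listed collagen promoters fell into 2 arrangements. In 3 of them the summit lay between divergent genes, whose 5′ ends point away from each other, so the same summit was also in the promoter window of a gene that is no collagen. In the other 2, the summit lay in another annotated gene. Of all 1506 main-list summits in windows of protein-coding genes, 35.4% lay in windows of genes on both strands. That share counts summits, not genes. Counted by gene, 909 of the 1955 genes with a main-list summit had a divergent gene with its 5′ end within 1000 bp.

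Before col-38 (WBGene00000615, chromosome II, 8568035 to 8569088, minus strand) the summit was 419 bp upstream, at 8569507. Its signal was 99.4 in replicate 1 and 76.4 in replicate 2, and 167 in the pooled list, where it ranked 920 of 2777. Signal is the authors' own value for each peak and is not comparable between lists. The 5′ end of rpl-5, which encodes a protein of the large ribosomal subunit, lies 839 bp away on the opposite strand, so the summit sat at the midpoint. The replicates split here, with the summit of replicate 1 nearer rpl-5 (418 against 421 bp) and that of replicate 2 nearer col-38 (416 against 423 bp). Unclassified non-coding RNA genes F54C9.16 and F54C9.17 overlap the summit.

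Both other shared summits lay nearer the neighbour than the collagen. Before col-71 (WBGene00000647, chromosome II, 3500077 to 3502570, minus strand) the summit at 3502833 was 263 bp from the collagen and 135 bp from Y49F6B.2, annotated in RefSeq with an Fcf2 pre-rRNA processing domain. Its signal was 61.1 in replicate 1, 54.1 in replicate 2 and 114 in the pooled list (rank 1622). The replicate summits lay 58 bp apart, the widest gap among the 5 genes. Before col-2 (WBGene00000593, chromosome IV, 10084439 to 10085451, minus strand) the summit at 10085860 was 409 bp from the collagen and 277 bp from ndc-80, which encodes a kinetochore protein. Its signal was 69.2 in replicate 1, 44.3 in replicate 2 and 117 in the pooled list (rank 1577). The candidate of replicate 2 had −log10 IDR 1.75, below the threshold, so col-2 was listed by replicate 1 and the pooled sets but not by replicate 2.

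The summit before col-185 (WBGene00000758, chromosome X, 13510035 to 13511097, minus strand) lay at 13512026, 929 bp upstream. It sat inside the tRNA-Pro gene WBGene00014413 (13511970 to 13512041, minus strand), whose bases are the capitals printed above. The 72 bases of that tRNA gene occur 24 times in the genome, itself included, while 95.6% of the 31-base words in the col-185 window occur once. Signal was 86.6 in replicate 1, 92.5 in replicate 2 and 191 in the pooled list (rank 719). Of the 166 member windows, 1 held a gene for a tRNA, snRNA, snoRNA, miRNA or rRNA, and it was that of col-185; over all protein-coding genes 1.66% of windows held one.

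Of the 5 summits, the one with the highest signal in the pooled list was that of col-63 (WBGene00000639, chromosome I, 8243694 to 8244963, minus strand). It lay at 8245637, 674 bp upstream of col-63, and read 93.4 in replicate 1, 118.5 in replicate 2 and 217 in the pooled list (rank 562). That position is in the longest annotated form of the last exon of ceh-8, a homeobox gene on the same strand, after its coding part. Shorter annotated forms of that exon end before the summit. A non-coding RNA gene of unclassified type, ZK265.11, lies 15 bp away. Of the 5 pooled signals, 3 were above the median of the main list, 130, and those of col-2 and col-71 were below it.

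**Figure D1:**
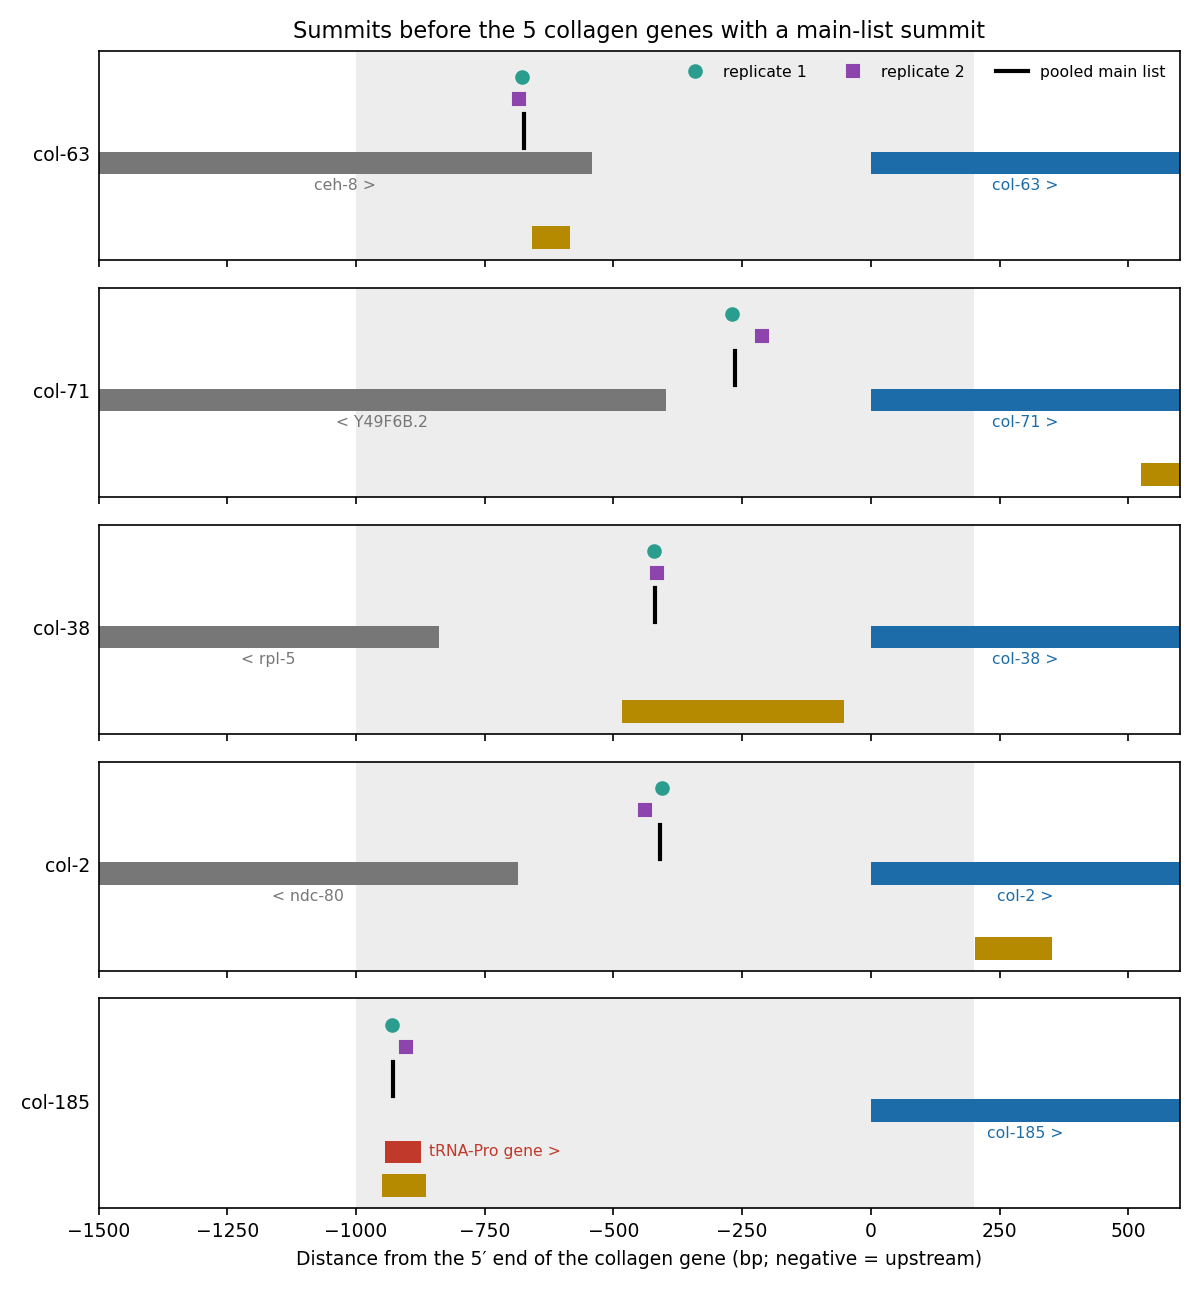
Positions of summits before the 5 collagen genes with a main-list summit, against distance from the collagen's 5′ end in bp (negative is upstream). Circles, squares and black bars are summits of replicate 1, replicate 2 and the pooled main list; bars below are the collagen (blue), protein-coding neighbours (grey), a tRNA gene (red) and unclassified non-coding RNA genes (ochre), with arrowheads for strand, and the shaded band is the promoter window. The pooled summits lie from 263 to 929 bp upstream, and 3 of the 5 lie between the collagen and a gene facing the other way.

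The replicates gave nearly the same genes. Replicate 1 listed 5 members (3.01%) beside 9.08% of all genes, and replicate 2 listed 4 (2.41%, interval 0.66 to 6.05) beside 6.55%. Both listed 4 members (col-38, col-63, col-71 and col-185), beside 5.88% of all genes. The other pooled list of 3082 peaks also gave 5 members, beside 10.5% of all genes. When a summit was given only to the nearest 5′ end among the windows that hold it, 3 members (col-38, col-63 and col-185) were left, or 1.81% (interval 0.374 to 5.19), beside 7.15% of all genes. For col-38 that assignment rests on 1 bp, since its summit lay 420 bp from rpl-5.

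**Figure D2:**
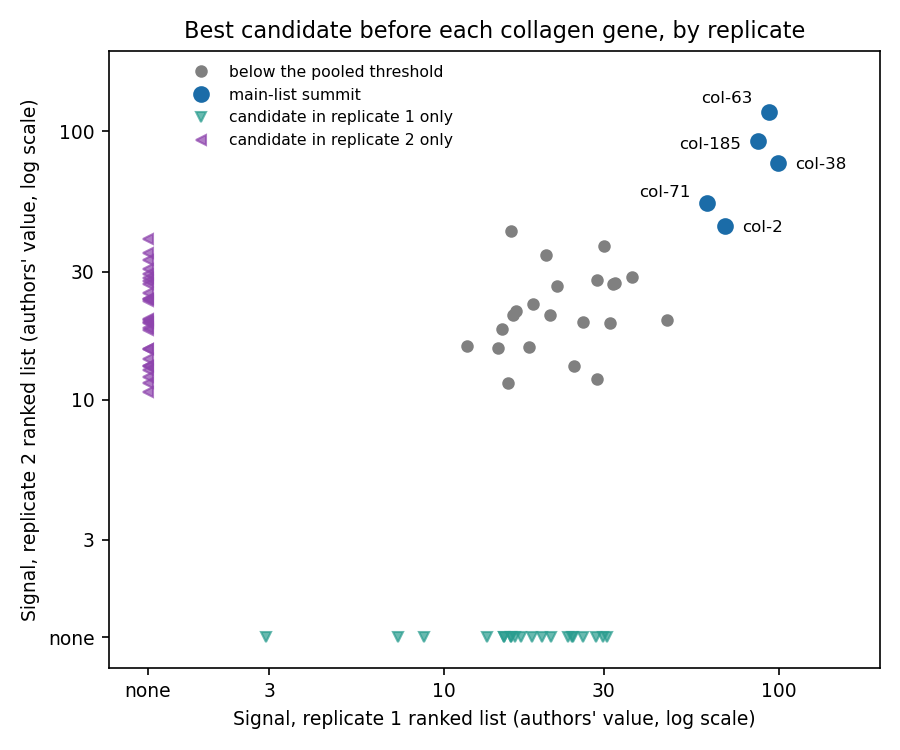
Signal of the best candidate before each collagen gene in the ranked list of replicate 1 (x axis) and replicate 2 (y axis), both on log scales; triangles at "none" are genes with a candidate in 1 replicate only, and each point is 1 gene. The 5 genes with a main-list summit lie above the other members in both replicates, from 61.1 to 99.4 in replicate 1 and from 44.3 to 118.5 in replicate 2. The main list is pooled from these replicates, so this separation follows in part from the selection. The best candidates of a gene in the replicates can lie at different positions in its window.

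Ranked candidates were less frequent before collagens than over all genes, and most of them were below the threshold. In the pooled ranked list 71 members had a candidate in the window (42.8%, interval 35.1 to 50.7), beside 53.5% of all genes. The median signal of the best candidate was 29.9 over these members (quartiles 20.03 and 41.9) and 34.4 over all genes with one (22.9 and 58.4). The 90th percentile of signal was 68.2 over these members and 134 over all genes. Of the 71 candidates, 5 (7.04%) passed the IDR threshold, against 18.3% of all genes with a candidate. The lowest −log10 IDR of the list, its least reproducible value, was held by 29 of the 71 (40.8%), against 28.0% over all genes with a candidate. Candidates were in both replicates for 27 members (16.3%) and in neither for 92 (55.4%), against 27.6% and 46.1% of all genes. These counts take any candidate in the window, so the replicates need not share a site.

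A candidate with −log10 IDR from 1 to below 2 was held by 6 of the 71 members with a candidate (8.45%), against 7.12% over all genes with one. The candidate nearest the threshold was that of col-111, 500 bp upstream, with signal 61.0 and −log10 IDR 1.93. It was followed by col-72 (signal 69.1, −log10 IDR 1.65), col-110 (70.4 and 1.60), col-104 (66.2 and 1.36), col-157 (39.1 and 1.32) and col-95 (51.5 and 1.25). The pooled summit of col-111 was at 4658474. In the ranked lists of the single replicates, the best candidate anywhere in its window had −log10 IDR 0.166 in replicate 1 and 0.510 in replicate 2. Their summits were at 4658882 in replicate 1 and 4658525 in replicate 2. The replicate 1 value therefore belongs to another position and does not measure the pooled site. In the pooled ranked list, the next candidates, of col-142 and col-40, had −log10 IDR 0.774 and 0.689.

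**Figure D3:**
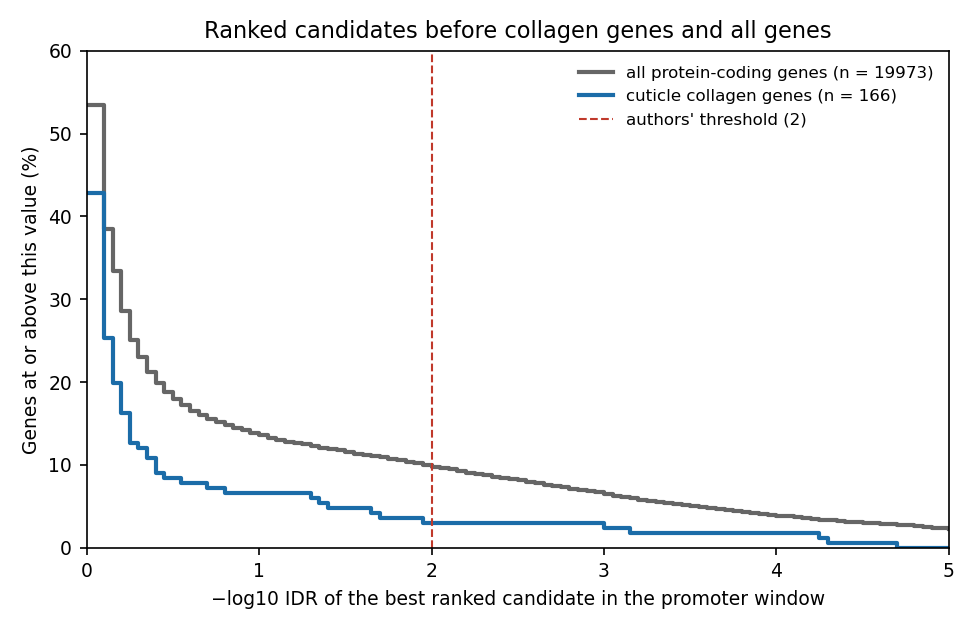
Percentage of genes whose best ranked candidate in the promoter window reaches each −log10 IDR (x axis), for 166 cuticle collagen genes (blue) and 19973 protein-coding genes (grey); the dashed line is the authors' threshold of 2. The blue curve starts at 42.8% and the grey at 53.5%, and at the threshold the members stand at 3.01%.

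Some collagen genes held peaks inside the gene instead. A main-list summit lay in the gene body, with none in the promoter window, for 4 members (2.41%), beside 2.78% of all genes. These were col-52, col-72, col-85 and col-99, with 5 summits, all in introns. Of these, 3 lay within 200 bp of a tRNA gene. They were a tRNA-His gene in col-72 (signal 271), a tRNA-Ile gene in col-85 (222) and a tRNA-Arg gene in col-99 (186). The col-99 product is a transmembrane collagen rather than a secreted cuticle component. The remaining summits had signal 79.3 in col-52, 1230 bp downstream of its 5′ end, and 145 in col-72, 455 bp downstream. In all, 10 main-list summits lay in member windows or genes, 4 of them within 200 bp of a tRNA gene and 3 in the promoter window of a divergent gene. Over all 2188 main-list summits in windows or bodies of protein-coding genes, 12.4% lay within 200 bp of a tRNA gene and 24.4% lay in windows of genes on both strands.

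Position and arrangement varied among members. They were spread over the 6 chromosomes, with 21 on I, 30 on II, 12 on III, 42 on IV, 33 on V and 28 on X. Another member's 5′ end lay within 10000 bp of 57 members (34.3%), and of none of the 5 with a summit. On chromosome III, 16.4% of all genes had a promoter summit and 0 of 12 collagens did (interval up to 26.5%). On chromosome V these were 6.77% and 0 of 33 (up to 10.6%). Chromosome X had the lowest share over all genes, 2.12%, and 1 of 28 collagens. Weighting all genes to the members' chromosomes gave 9.22%, and weighting to their upstream intergenic length 10.02%.

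A divergent partner, a protein-coding gene on the opposite strand whose 5′ end lies within 1000 bp, was present for 20 members (12.05%), against 17.7% of all genes. Of those 20, 3 had a summit (15%, interval 3.21 to 37.9), beside 25.7% of the 3539 genes with such a partner. Of the 146 without one, 2 had a summit (1.37%, interval 0.166 to 4.86), beside 6.36% of 16434 genes. Weighted to the members by this property, the share over all genes was 8.69%. The other 17 partnered collagens, among them dpy-13 with zipt-2.2 and the divergent pair col-3 and col-117, had no main-list summit. In the windows of col-3 and col-117, however, only 46.6% of the 31-base words occur once in the genome. Median distance from the 5′ end to the nearest main-list summit was 18615 bp for members (quartiles 6913 and 37763) and 15111 bp for all genes (4792 and 35466).

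**Figure D4:**
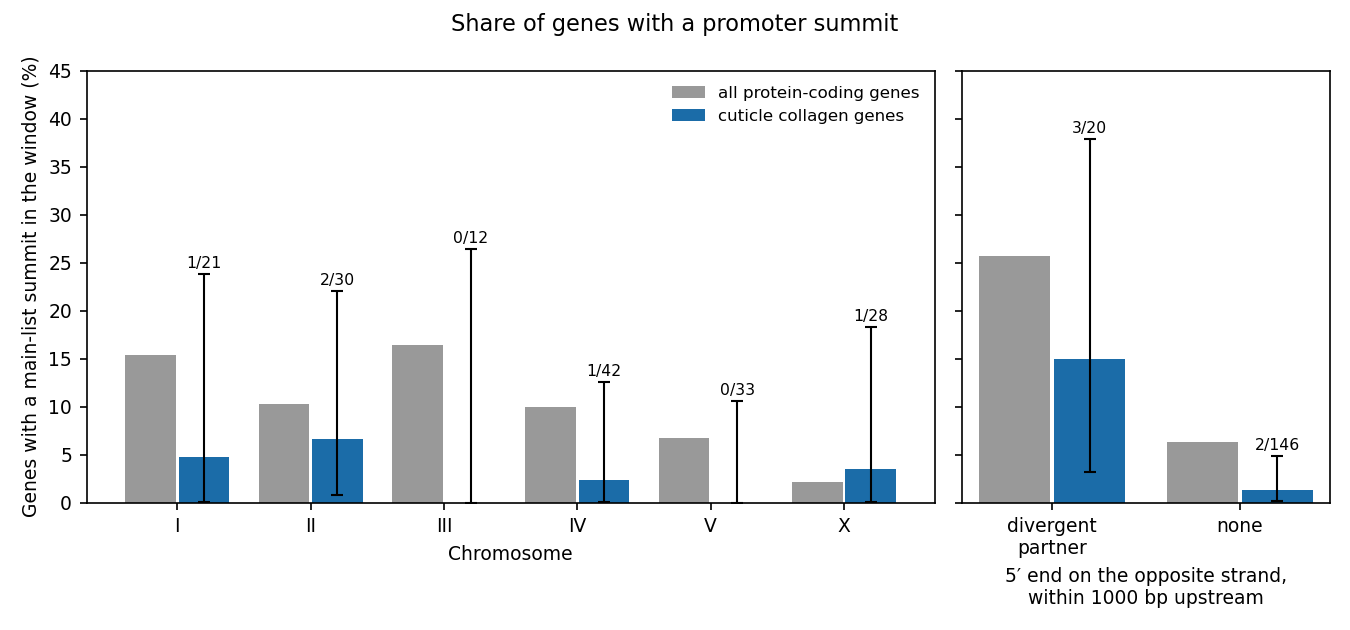
Percentage of genes with a main-list summit in the promoter window, by chromosome (left) and by presence of a divergent partner within 1000 bp (right), for all protein-coding genes (grey) and cuticle collagen genes (blue, with exact 95% intervals and counts). Members reach 15% with a partner and 1.37% without; the grey bars stand at 25.7% and 6.36%.

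Base composition of the windows was summarised next. Median GC content of the window was 35.8% for members and 35.0% for all genes, and median CG dinucleotides were 35 and 36. Genes with a summit had a median of 50 CG dinucleotides, and the 5 collagens with a summit had 41. At least 50% of the 31-base words in the window occurred once in the genome for all but 2 members (1.20%), col-3 and col-117. Of all genes, 3.30% were below that level.

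Words of 7 bases were taken from 2175 main-list summits away from small RNA genes, counted on both strands in 100 bases and compared with flanks 300 bp to each side. The 4 words kept were chosen for their excess over flanks. Their higher shares at summits, and in windows of genes with a summit, therefore follow from the choice. The word AAGGCGC was at 10.3% of summits and 0.874% of flanks, GCGAGAC at 7.86% and 0.506%, CGCGCGC at 6.39% and 0.345%, and TACCGTA at 8.83% and 1.06%. Any of these 4 was in the promoter window of 27.1% of collagens (45 of 166), 29.1% of all genes and 55.4% of genes with a summit. Of the 5 collagens with a summit, col-38 held TACCGTA and col-63 held CGCGCGC somewhere in the window. The match of col-38 was within the 100 bases printed above. The shorter GCGC, which overlaps AAGGCGC and CGCGCGC, was at 50.1% of summits and 11.8% of flanks, and in the 100 bases at 4 of the 5 collagen summits, all but col-185. Over whole windows it was in 66.3% of collagens, 67.5% of all genes and 91.9% of genes with a summit. As part of words chosen at these summits, GCGC has shares at summits that are not independent of that choice. The same holds for windows with a summit. A match is a description of letters and not a binding site.

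Words known from other regulators were also counted. GATAA, the core recognised by GATA factors such as the epidermal regulator elt-3, was in 96.4% of collagen windows and 95.1% of all windows. TATAAA, the TATA box core, was in 89.8% of collagen windows, 80.0% of all windows and 73.3% of those with a summit.

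**Figure D5:**
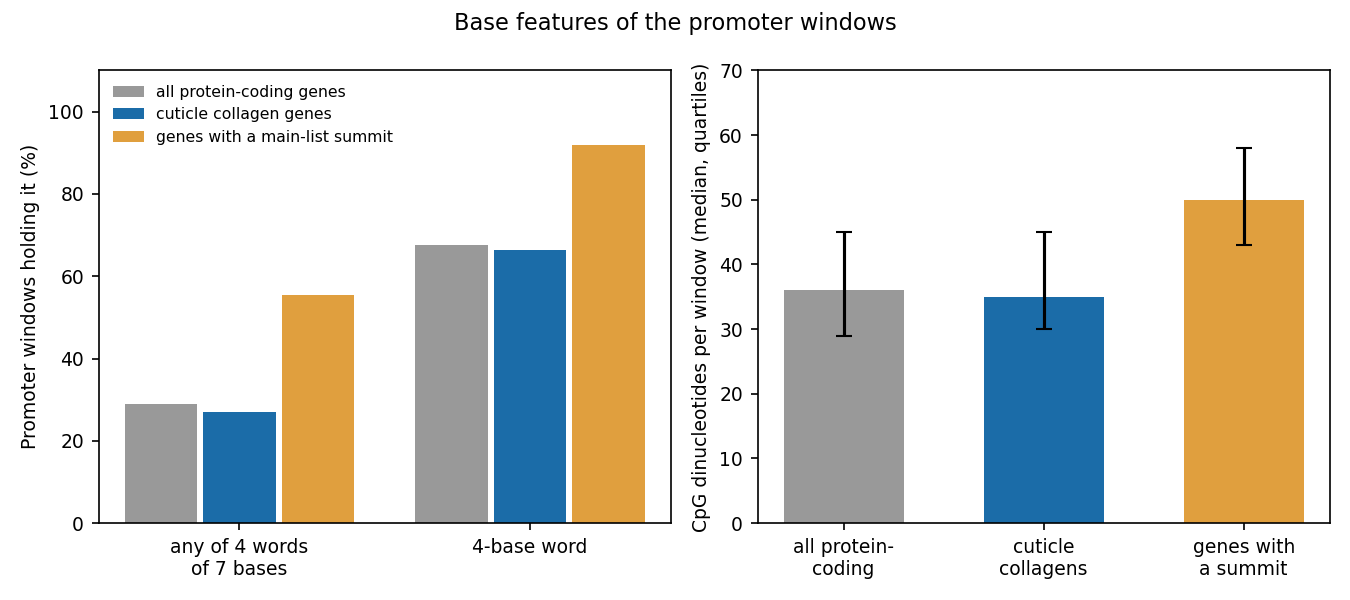
Left, percentage of promoter windows that hold any of 4 words of 7 bases frequent at summits, or a 4-base word contained in some of them, for all protein-coding genes (grey), cuticle collagen genes (blue) and genes with a main-list summit (orange). Right, median CG dinucleotides per window with quartiles. Collagens stand at 27.1%, 66.3% and 35, against 55.4%, 91.9% and 50 for genes with a summit. The 4 words were chosen from the same summits, so the share of the 4-base word is not independent of them either.

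Genes around collagen biology outside the naming rule were examined in 5 lists. Of 60 genes, 2 had a main-list summit in the window (3.33%, interval 0.406 to 11.5), beside the 9.79% of all genes. Among 10 other cuticle collagens with known mutants, bli-6 was listed, 345 bp upstream, with signal 91.6 and rank 2083. Its summit lay 197 bp from hrpf-2 on the opposite strand, and it passed in neither replicate alone (signal 47.4 and 33.7, −log10 IDR 1.89 and 0.985). Candidates of dpy-8 (signal 46.5), dpy-3 (41.9) and dpy-4 (34.8) were below the threshold. Of these 10 collagens 7 had a ranked candidate in the window, and of the 60 genes 34 did, beside 53.5% of all genes. The lower candidate share of the members was thus not seen in these 10.

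The enzymes that process and crosslink collagens had 0 of 14 genes listed (interval up to 23.2%). The nearest to the threshold were pdi-2, a protein disulfide isomerase that also serves prolyl hydroxylation (signal 78.5, −log10 IDR 1.86), and bli-4, a proprotein convertase (46.7 and 1.53). The other pooled list held summits of pdi-2 and of pdi-1, another disulfide isomerase gene, and replicate 2 alone listed pdi-1 (signal 57.6). Basement membrane collagens had 0 of 3 (up to 70.8%), with no candidate in the pooled list. Regulators of moulting and cuticle genes had 0 of 15 (up to 21.8%), and the highest candidate signals were 46.7 for lin-42, a homologue of period, and 46.3 for bed-3, a zinc finger gene. Among 18 other cuticle and apical matrix proteins 1 was listed. This was egg-6, which encodes an extracellular leucine-rich repeat protein, with a summit 436 bp upstream, pooled signal 232 (rank 480) and thresholded peaks in both replicates (signal 147.8 and 90.9). Its summit lay in no other gene's window.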

How the data were processed

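ChIP-seq was analysed for 2 biological replicates of 1 group, tagged young adults. Per the deposited file descriptions, peaks are on ce11 (WBcel235) and were called with a control; the sources used here do not name an aligner or caller. The authors deposited 8 lists (ranked and thresholded, for each replicate and 2 pooled sets), with a signal value per peak and, in ranked lists, the −log10 IDR; thresholded lists hold peaks with −log10 IDR of at least 2. The descriptions do not pair ranked with thresholded pooled lists, so each pair was inferred from shared peaks past 2, and pooled −log10 IDR values rest on it. Signal was used only within a list. Summits, in 1-based coordinates, were set against 1201 bp windows of Ensembl release 115 genes, and every window holding a summit counted. Neighbour products and genome sequence came from RefSeq. Intervals are exact Clopper-Pearson 95%. The design allowed no test between groups, and none was made. Window assignment was tested on simulated data. Genes named were those with a thresholded summit, those named singly in the rule, the next 8 candidates by IDR, and the leading genes of each list. Members and lists were chosen with earlier results of these data known; divergent partners, gene bodies, words and word uniqueness were examined after seeing the data. Tools were Python 3.11.15, numpy 2.4.6, pandas 2.3.3, scipy 1.17.1 and matplotlib 3.10.9.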

Additional observations from a re-analysis of the deposited data

How the results depend on the processing

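The count of 5 collagen genes with a main-list summit was 3 with the nearest 5′ end only (beside 7.15% of all genes). It was also 3 with a window of 500 bp upstream and 100 bp downstream (beside 7.65%) and with the stronger 1388 summits (beside 5.63%). A window of 2000 bp upstream and 500 bp downstream gave 11 (beside 12.7%). The added genes were col-40, col-72, col-85, col-94, col-155 and col-162. The count was 5 with the 5′ end of any transcript (beside 10.4%) or the other pooled list (beside 10.5%). It was 6 with any overlap of the peak (beside 10.4%) and 4 without summits at small RNA genes (beside 9.06%). With either replicate left out it was 4 to 5 (beside 6.55% to 9.08%), and without replicate 1, col-2 was lost. In each of these 11 settings, the main one included, the members' share was below that over all genes, with a ratio from 0.236 to 0.521. Of the 60 related genes, 2 were listed in the main setting. The nearest 5′ end only gave 1 (beside 7.15% of all genes), and the stronger summits gave 1 (beside 5.63%). The other pooled list gave 4, adding pdi-1 and pdi-2 (beside 10.5%). Leaving out replicate 1 gave 2 (egg-6 and pdi-1, beside 6.55%). Leaving out replicate 2 gave 1 (egg-6, beside 9.08%). In both cases bli-6 was lost. Members with a ranked candidate numbered 71 (beside 53.5% of all genes), 44 in the narrower window (beside 38.7%) and 47 to 54 with either replicate left out (beside 40.6% to 40.9%). The median distance to a summit of 18615 bp became 33180 bp with the stronger summits and 19953.5 to 29341.5 bp with either replicate left out, where all genes moved from 15111 to 29508 bp and to 17317 to 24383 bp. Members listed in both replicates numbered 4 (beside 5.88% of all genes) and 2 in the narrower window (beside 4.52%). No paired analysis was possible because there is 1 group. Without read counts the depth behind an absent peak is unknown.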
